A study of Homo sapiens with 4 samples.

Results

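The genes described here are 37 cytokines, chemokines and their receptors, taken as a list by gene symbol and followed through all of their probe sets in sorted PC14 cells. PC14 is an established line of non-small-cell lung cancer. Of the 37 genes, 36 had at least 1 probe set with their symbol alone, 77 probe sets in all, among 19775 genes named on the array. CSF2 had no such probe set in the annotation used and is not analysed here. The series holds 4 one-colour Affymetrix arrays, with total RNA of 1 sorted subpopulation on each. Cells were sorted first by surface E-cadherin, the adhesion protein of epithelia, and then by green fluorescence from a lentiviral reporter driven by the P1 promoter of the CD133 gene. The subpopulations were E-cadherin-low CD133-high cells (E-CD133+), E-cadherin-high CD133-high cells (E+CD133+), E-cadherin-low CD133-low cells (E-CD133-) and E-cadherin-high CD133-low cells (E+CD133-). All derive from the same line and carry the reporter vector, and no drug or cytokine treatment is named. CD133 status is that of the reporter, not of the surface protein. With 1 array per subpopulation no difference below has a replicate check. The only p-values are those of an additive fit over all 4 arrays that leaves 1 residual degree of freedom. That residual is how far the effects of the sorted markers depart from adding up, and it does not measure variation between replicates.

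Cytokines are secreted proteins that act on cells bearing matching receptors, and many tumour cells both release and sense them. IL-6, IL-11 and LIF signal through receptor complexes that share the chain gp130, encoded by IL6ST, and activate JAK kinases and STAT transcription factors. IL-1 and TNF act through NF-kappaB, which induces the chemokines of the CXCL1 to CXCL8 group that attract neutrophils. VEGF-C is the main growth factor of lymphatic vessels.

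Signals are the deposited intensities per probe set on a linear scale, scaled within each array. Each array has a floor, the median signal of its probe sets without the controls, which was 60.3 in E-CD133+, 53.7 in E+CD133+, 57.0 in E-CD133- and 57.4 in E+CD133- cells. A gene was represented by its brightest probe set and called measured when that exceeded the floor of 1 or more arrays. Signals of different probe sets were not set against each other, since each binds its target with its own efficiency. Ratios were taken within pairs of arrays that differ in 1 sorted marker, and a ratio with 1 array at its floor is a lower bound on its size, written "at least". A bound that stays under 2-fold does not show that the ratio does. A member was counted when it was at least 2-fold higher, or at least 2-fold lower, in both pairs of a comparison.

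Of the 36 members, 24 were measured and 12 lay below the floor on all 4 arrays. These are 66.7% of the members with a probe set, against 71.2% of all named genes (14083 of 19775). Receptors were seen more completely than ligands. Of 13 receptor genes 9 lay above the floor on every array and 2 on none, whereas of 23 ligand genes with a probe set 3 did so on every array and 10 on none. Of all 19775 named genes 10891 lay above the floor on every array. Genes differ in the number and efficiency of their probe sets, so these counts do not compare amounts of RNA. The 3 ligands above the floor everywhere were LIF, IL18 and VEGFC. The 12 genes below it were IL1A, IL33, IL15, IL32, TNF, the chemokines CCL2, CXCL2, CXCL5, CXCL8 and CXCL10, and the receptors OSMR and TNFRSF1A. Their 21 probe sets read 0.88 to 47.5. TNFRSF1A, the main TNF receptor of most cell types, rested on 1 probe set that read 16.1 in E-CD133+, 6.74 in E+CD133+, 19.3 in E-CD133- and 39.1 in E+CD133- cells. A signal under the floor does not show that a gene is silent, and no difference in these 12 genes could be measured here.

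**Figure D1:**
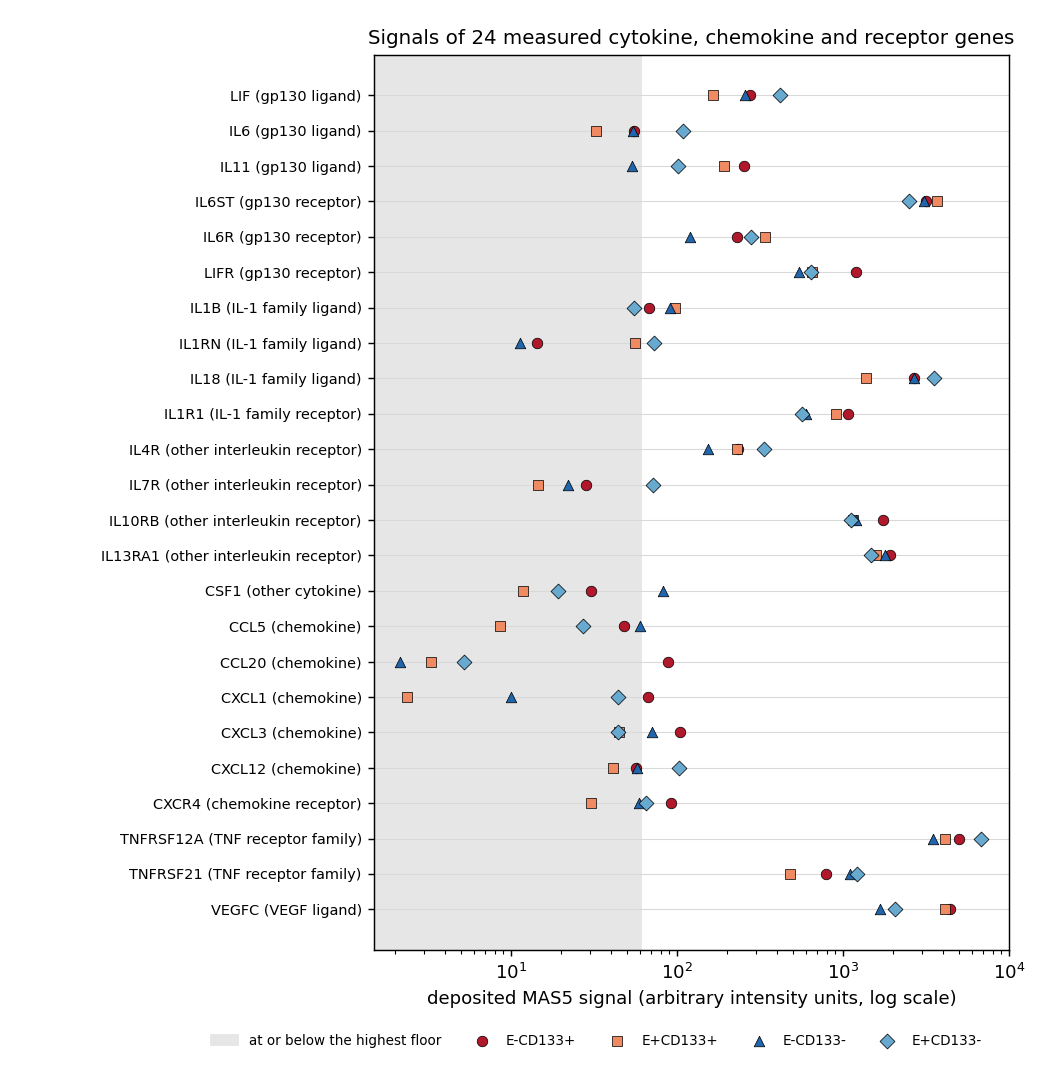
Signal of the 24 measured members (intensity units, log scale) on the 4 arrays, 1 point per array, with the region under the highest floor of 60.3 in grey. Receptor chains such as IL6ST and IL10RB lie to the right of the grey region on every array, while no chemokine gene has all 4 points outside it.

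The comparison of CD133-high with CD133-low cells asks which of these genes go with the reporter sort. VEGFC was the 1 member counted, higher in CD133-high cells in both pairs, and 0 were counted lower. IL11, a gp130 cytokine, came closest to it among the others. In all 14083 measured genes 2.45% were counted higher and 1.12% lower, so 1 of 24 members (4.17%) is near that background. Each array enters a pair of both comparisons, so their ratios are not independent of each other. In sorted cell pools, more cells that express a gene and more RNA per cell cannot be told apart.

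VEGFC, the lymphatic growth factor, read 4418 in E-CD133+ and 4125 in E+CD133+ cells, against 1668 in E-CD133- and 2057 in E+CD133- cells. Both CD133-high arrays lay above both CD133-low arrays. The ratio was 2.65-fold in E-cadherin-low cells (log2 1.41) and 2.005-fold in E-cadherin-high cells (log2 1.004), the second of them at the edge of the 2-fold rule. After quantile normalization that second ratio was log2 0.99, and the count of members higher fell to 0. VEGFC was represented by 1 probe set. Between the E-cadherin sorts it differed little, with log2 0.10 among CD133-high and -0.30 among CD133-low cells.

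IL11 read 254.9 in E-CD133+ and 193.2 in E+CD133+ cells, against 53.9, under the floor, in E-CD133- and 101.2 in E+CD133- cells. It was at least 4.47-fold higher with CD133 in E-cadherin-low cells and 1.91-fold higher in E-cadherin-high cells, just short of the rule. When all arrays were given equal medians the ratio in E-cadherin-high cells was log2 1.03, and IL11 was counted too. With the floor at the 65th percentile its ratios were 0.78 and 0.37. Its other probe set read 4.05 to 7.76, below the floor on all arrays. IL1R1, the signalling receptor of IL-1, came next when members were ranked by the smaller of their CD133 ratios. It read 1076 in E-CD133+ and 911 in E+CD133+ cells, against 597 in E-CD133- and 569 in E+CD133- cells, log2 0.85 among E-cadherin-low and 0.68 among E-cadherin-high cells. IL1R1 thus followed the CD133 sort in both pairs without reaching 2-fold. An additive limma fit of both markers on the floored signals of the measured genes, with 1 residual degree of freedom, gave Benjamini-Hochberg adjusted p-values for CD133 of 0.11 for VEGFC, 0.13 for IL11 and 0.21 for IL1R1, and called none of the 24 members. The unadjusted p of that fit was under 0.05 for 4 members, IL11, IL1R1, TNFRSF21 and VEGFC, which is 16.7% of them and also of all measured genes. The fit depended on its input. It was run on 6 inputs in all, and over these the adjusted limma p-value spanned 0.00165 to 0.379 for VEGFC, 1.21e-05 to 0.396 for IL11 (5 inputs) and 0.114 to 0.401 for IL1R1. With all 19775 named genes at their floored signals the fit called VEGFC and IL11 higher and TNFRSF21 lower, and on the other 5 inputs it called none of the members.

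The promoters of VEGFC and IL11, the members with the largest ratios that go with CD133 in both pairs, are given with that of TNFRSF21, which goes the other way in E-cadherin-high cells. These genes were chosen after their values were seen. Each window runs from 250 bases before to 50 bases after the start of the gene in RefSeq, and is read 5′ to 3′ on the strand of the gene. Capitals mark matches, on either strand, to GGG and CC with 5 bases of any kind between them (the spacing of NF-kappaB sites), to TGANTCA (AP-1) or to TTCNNNGAA (the spacing of STAT sites), and overlapping matches run together.
VEGFC (GRCh38.p14, chr4:176792873-176793172, minus strand): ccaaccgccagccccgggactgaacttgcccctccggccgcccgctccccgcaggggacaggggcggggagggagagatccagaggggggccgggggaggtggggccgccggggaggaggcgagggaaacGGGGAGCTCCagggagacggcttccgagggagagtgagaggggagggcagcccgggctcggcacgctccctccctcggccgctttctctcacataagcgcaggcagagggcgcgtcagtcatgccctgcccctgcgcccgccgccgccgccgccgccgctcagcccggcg
IL11 (GRCh38.p14, chr19:55370414-55370713, minus strand): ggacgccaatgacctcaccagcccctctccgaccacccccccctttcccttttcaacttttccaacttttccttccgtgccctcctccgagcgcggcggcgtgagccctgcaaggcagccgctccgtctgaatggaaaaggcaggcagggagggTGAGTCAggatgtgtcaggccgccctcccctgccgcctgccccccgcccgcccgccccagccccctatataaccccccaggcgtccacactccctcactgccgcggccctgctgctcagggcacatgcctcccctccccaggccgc
TNFRSF21 (GRCh38.p14, chr6:47309856-47310155, minus strand): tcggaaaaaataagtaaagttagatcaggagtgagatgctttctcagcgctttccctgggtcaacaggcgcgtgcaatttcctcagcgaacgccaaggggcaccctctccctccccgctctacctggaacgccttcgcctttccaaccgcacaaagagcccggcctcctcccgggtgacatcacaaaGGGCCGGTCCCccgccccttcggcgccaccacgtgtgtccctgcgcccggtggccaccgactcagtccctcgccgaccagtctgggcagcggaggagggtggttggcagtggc
The IL11 window held an AP-1 match, TGAGTCA, at position -96 from the start, and VEGFC held GGGGAGCTCC at position -120. TNFRSF21 held GGGCCGGTCCC, a pair of overlapping matches, at position -63. Of 35116 promoter windows of this length, 58.7% held the NF-kappaB spacing, 7.71% the AP-1 letters and 7.66% the STAT spacing. Among 42 windows of the 30 members with a promoter in the table, 30, 7 and 8 did so in that order. A match is a string of letters, not evidence of binding.

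Within E-cadherin-high cells alone, IL18, TNFRSF21, LIF and IL6 were lower with CD133 by 2-fold or more, 4 members in all, and VEGFC was higher. Over all measured genes 3.24% were lower and 5.04% higher in that pair. None of the 4 reached 2-fold in E-cadherin-low cells. In that other pair IL11, LIFR and VEGFC were at least 2-fold higher and 0 members were lower, against 8.11% and 4.27% of all measured genes.

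IL18, an IL-1 family cytokine that is stored as an inactive precursor, read 2679 in E-CD133+ and 1373 in E+CD133+ cells, against 2679 in E-CD133- and 3565 in E+CD133- cells. The E-cadherin-low arrays were level and the E-cadherin-high arrays stood at either end of the range. Its CD133 ratio was log2 -1.38 among E-cadherin-high and 0.00 among E-cadherin-low cells. TNFRSF21, the death receptor DR6, read 792 in E-CD133+ and 478 in E+CD133+ cells, against 1097 in E-CD133- and 1218 in E+CD133- cells. Both CD133-high arrays were lower than both CD133-low arrays, with log2 ratios of -1.35 among E-cadherin-high and -0.47 among E-cadherin-low cells. Its second probe set gave log2 -1.62 and 0.02 for the same pairs, so the difference in E-cadherin-low cells did not repeat there.

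LIF, a gp130 cytokine known for keeping mouse embryonic stem cells undifferentiated, read 276 in E-CD133+ and 166 in E+CD133+ cells, against 257 in E-CD133- and 420 in E+CD133- cells. The CD133 ratio was log2 -1.34 among E-cadherin-high and 0.10 among E-cadherin-low cells. IL6 lay above the floor in E+CD133- cells alone, at 108.7, and read 54.9 in E-CD133+, 32.3 in E+CD133+ and 54.6 in E-CD133- cells. It was lower with CD133 in E-cadherin-high cells by at least 2.02-fold, and with the floor at the 65th percentile it was at the floor on both arrays of that pair. That bound fell under 2-fold after quantile normalization, at log2 -0.96, and with equal array medians, at -0.92. The IL6 signals under the floor have no order among themselves.

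**Figure D2:**
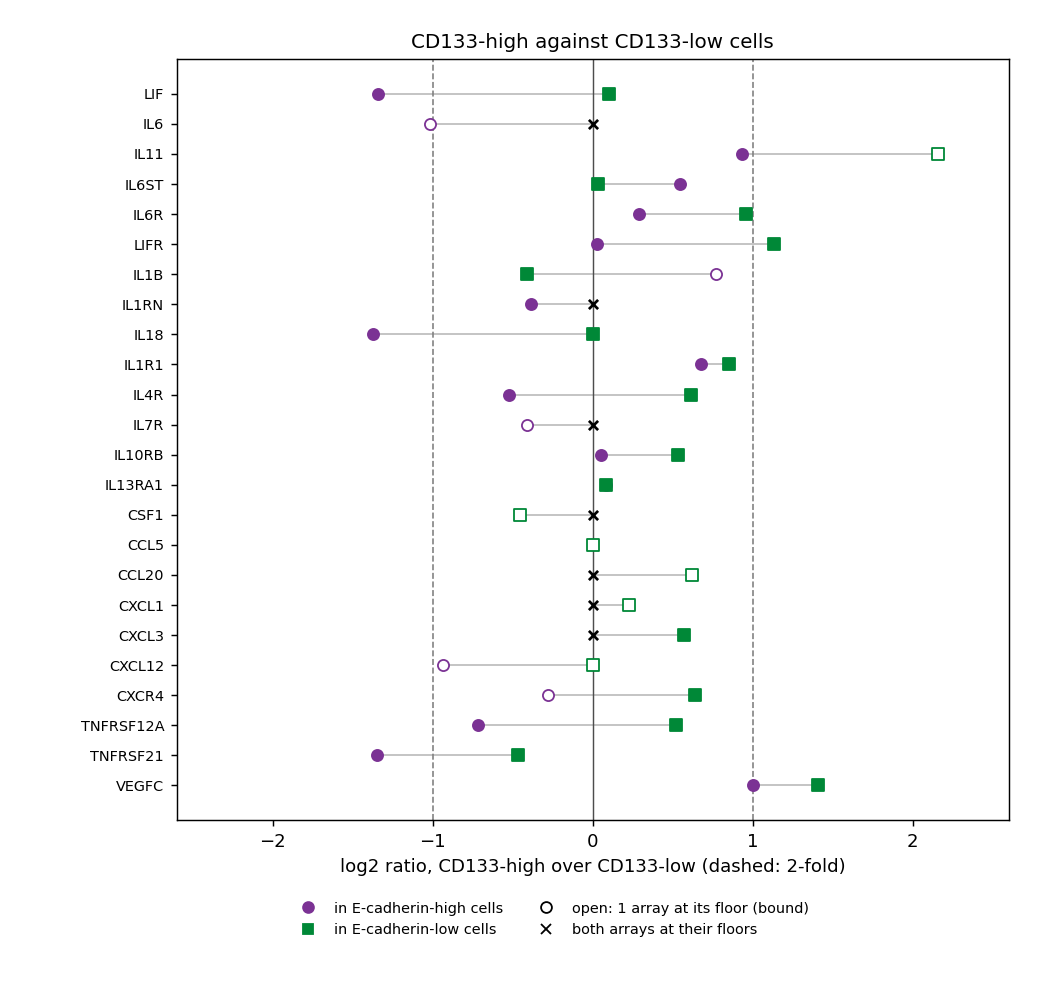
Log2 ratio of CD133-high over CD133-low cells for each measured member, circles within E-cadherin-high and squares within E-cadherin-low cells, open where 1 array was at its floor (at 0 if the bound had no direction) and crosses at 0 where both were. VEGFC reaches the dashed 2-fold line on the right with both symbols, while LIF, IL6, IL18 and TNFRSF21 pass the line on the left with the circle alone.

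The comparison of E-cadherin-low with E-cadherin-high cells asks which genes go with the epithelial or mesenchymal sort. Of the 24 members 0 were counted higher and 0 lower, against 0.476% and 0.54% of all measured genes, so 0 of 24 is near that background. By brightest probe set, 0 members were 2-fold higher and 0 lower among CD133-high cells, against 3.81% and 2.53% of all measured genes. Among CD133-low cells 0 were higher and 2 lower, IL6R and IL4R, against 2.63% and 2.87%. Dimmer probe sets of LIFR and TNFRSF21 did pass 2-fold among CD133-high cells, at log2 1.42 and 1.07. That of LIFR read 155 in E-CD133+ and 58.0, near the floor, in E+CD133+ cells. Other measured dimmer probe sets of LIFR gave log2 0.30 and 0.33 in that pair. The additive limma fit on the floored signals of the measured genes called none of the 24 members and 0 of the 14083 genes for this marker. On the other 5 inputs it called 0 members as well, and 0 to 238 genes higher and 0 to 194 lower. On the first input the unadjusted p was under 0.05 for 1 member, IL6R, and for 961 of all measured genes, or 6.82%.

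IL6R, the IL-6 binding chain that pairs with gp130, read 231 in E-CD133+ and 119 in E-CD133- cells, against 341 in E+CD133+ and 279 in E+CD133- cells. Both E-cadherin-low arrays were lower than both E-cadherin-high arrays, with log2 ratios of -0.56 among CD133-high and -1.23 among CD133-low cells. Its second measured probe set gave log2 -0.18 and 0.07, so the lower level was not seen there. IL4R, the receptor chain shared by IL-4 and IL-13, read 234 in E-CD133+ and 153 in E-CD133- cells, against 231 in E+CD133+ and 333 in E+CD133- cells. It was level among CD133-high cells, with log2 0.02, and lower among CD133-low cells, with log2 -1.12. IL13RA1, its partner for IL-13, gave log2 0.28 in both pairs by its brightest probe set. That probe set read 1911 and 1805 in E-CD133+ and E-CD133- cells, against 1574 and 1484 in E+CD133+ and E+CD133- cells. The dimmer probe sets of IL13RA1 gave log2 -0.09, -0.04 and 0.28 among CD133-high cells. In the same order they gave 0.89, 0.58 and 0.32 among CD133-low cells.

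Among CD133-high cells 15 of 24 member ratios were above 0 and 3 below, with a median of log2 0.26. Over all measured genes 46.9% were above 0 and 45.6% below in that pair, with a median of 0.00. With equal array medians the median of the members there was 0.09 and that of all measured genes -0.12. Among CD133-low cells 8 member ratios were above 0 and 14 below, with a median of -0.19, against 43.8% above and 49.5% below and a median of 0.00 over all measured genes. These counts carry no test, and IL6R, IL1R1, IL10RB, IL13RA1 and CXCL3 were among those with the same sign in both pairs. Dimmer probe sets of IL6R and IL13RA1 did not all repeat this. LIF was the 1 member with opposite signs at 1.5-fold or more, with log2 0.74 among CD133-high and -0.71 among CD133-low cells. TNFRSF12A, the receptor of the cytokine TWEAK, read 5021 in E-CD133+ and 3502 in E-CD133- cells, against 4116 in E+CD133+ and 6763 in E+CD133- cells, which is log2 0.29 and -0.95.

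**Figure D3:**
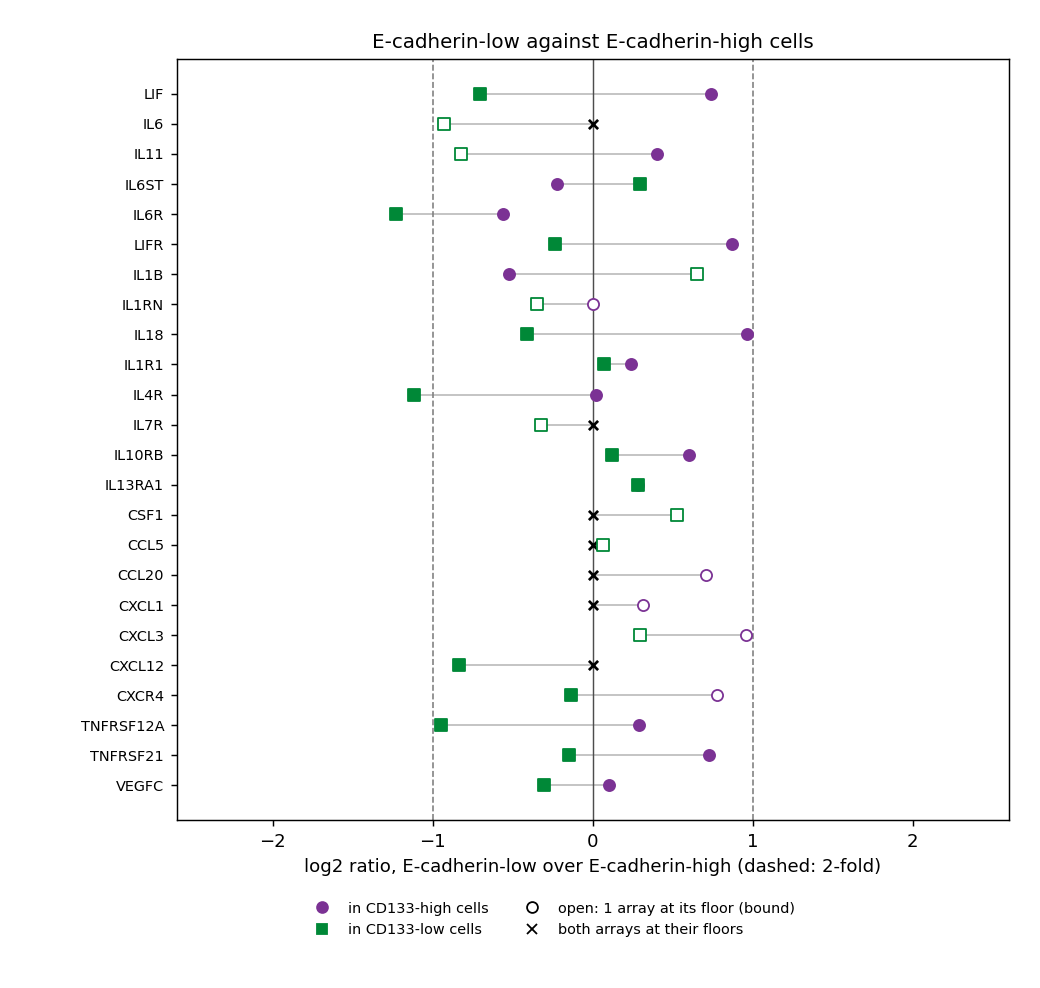
Log2 ratio of E-cadherin-low over E-cadherin-high cells for each measured member, circles within CD133-high and squares within CD133-low cells, open where 1 array was at its floor (at 0 if the bound had no direction) and crosses at 0 where both were. Only IL6R and IL4R pass a dashed 2-fold line, both with the square, and for LIF, IL18 and TNFRSF12A circle and square lie on opposite sides of 0.

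E-CD133+ cells had the highest signal of 10 members, IL11, LIFR, IL1R1, IL10RB, IL13RA1, CCL20, CXCL1, CXCL3, CXCR4 and VEGFC. E+CD133- cells had that of 9, LIF, IL6, IL1RN, IL18, IL4R, IL7R, CXCL12, TNFRSF12A and TNFRSF21. E+CD133+ cells had the highest signal of 3, IL6ST, IL6R and IL1B, and E-CD133- cells of 2, CSF1 and CCL5. Over all measured genes the shares were 28.6% in E-CD133+, 26.4% in E+CD133-, 20.5% in E+CD133+ and 24.5% in E-CD133- cells. Of the members, 6 were above the floor on 1 array only, which fixes their highest array: CCL20 and CXCL1 in E-CD133+, CSF1 and CCL5 in E-CD133-, and IL6 and IL7R in E+CD133- cells. Of the 12 members above the floor on all arrays, 5 were highest in E-CD133+, 5 in E+CD133-, 2 in E+CD133+ and 0 in E-CD133- cells. These counts carry no test, and for members such as IL13RA1 the highest array led by little. By its other measured probe set CXCR4 was highest in E-CD133- cells, and so was IL13RA1 by its dimmer ones. IL6ST was highest in E-CD133- cells by dimmer probe sets that read 442 and 71.5 there. By another, at 130, it was highest in E+CD133- cells. A further dimmer probe set of IL6ST, at 149, was highest in E+CD133+ cells, as the brightest was.

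Among the gp130 receptors, IL6ST read 3150 in E-CD133+ and 3682 in E+CD133+ cells, against 3085 in E-CD133- and 2519 in E+CD133- cells, with ratios of up to 1.46-fold. LIFR, the LIF-binding chain, read 1192 in E-CD133+ cells, 652 in E+CD133+, 544 in E-CD133- and 642 in E+CD133- cells. E-CD133+ cells stood apart and the other three lay close together. The CD133 ratio of LIFR was log2 1.13 in E-cadherin-low cells and 0.02 in E-cadherin-high cells. Its 3 other measured probe sets gave log2 0.05 to 0.63 for the first of these pairs, the same sign at a smaller size. IL11RA, the IL-11 binding chain, and FLT4, a VEGF-C receptor, are named here because of their ligands, after the values were seen. IL11RA read 154 in E-CD133+ and 77.9 in E+CD133+ cells, against 124 in E-CD133- and 102 in E+CD133- cells. FLT4 read 409 in E-CD133+ and 274 in E+CD133+ cells, against 467 in E-CD133- and 359 in E+CD133- cells. Neither receptor followed the CD133 sort in the manner of its ligand.

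Probe sets of a gene did not always move together. For 6 members more than 1 probe set lay above a floor. For IL6ST, the CD133 ratio among E-cadherin-high cells was 1.46-fold higher by the brightest probe set. A dimmer one gave at least 2.59-fold higher, and the others above a floor gave log2 -0.40, -0.17 and 0.04. For IL13RA1, a dimmer probe set gave log2 -0.78 for CD133 among E-cadherin-low cells, where the brightest gave 0.08. For TNFRSF21 both probe sets gave at least 2-fold lower values in E-cadherin-high cells.

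**Figure D4:**
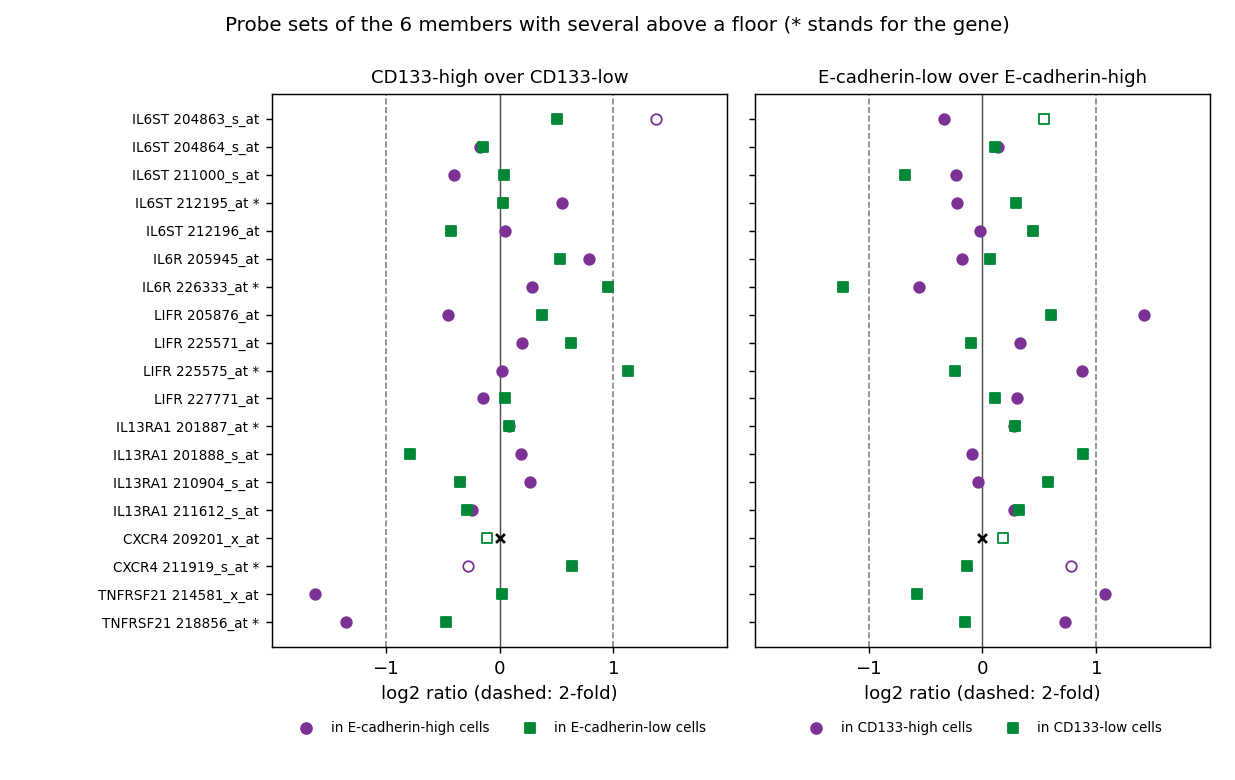
CD133 ratios (left) and E-cadherin ratios (right), on the log2 scale, of every probe set above a floor for IL6ST, IL6R, LIFR, IL13RA1, CXCR4 and TNFRSF21, with an asterisk at the one that stands for the gene. The circles of both TNFRSF21 probe sets lie left of the 2-fold line in the left panel, while those of IL6ST spread on both sides of 0.

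Of 10 chemokine genes 5 were measured, CCL5, CCL20, CXCL1, CXCL3 and CXCL12, and 0 lay above the floor on all 4 arrays. CCL20, the ligand of the receptor CCR6, read 87.8 in E-CD133+ cells and 3.31 in E+CD133+, 2.15 in E-CD133- and 5.21 in E+CD133- cells. It was above the floor in E-CD133+ cells alone, at least 1.64-fold higher than in E+CD133+ and at least 1.54-fold higher than in E-CD133- cells. CXCL1 read 66.8 in E-CD133+ cells and 2.37 in E+CD133+, 10.02 in E-CD133- and 44.2 in E+CD133- cells. CXCL3 read 104.5 in E-CD133+ and 70.5 in E-CD133- cells, against 44.9 in E+CD133+ and 44.0 in E+CD133- cells. CCL20 and CXCL1 were called measured through E-CD133+ cells alone, and all 3 genes stayed within 2-fold of a floor on that array. CXCL12, the ligand of CXCR4, was the other way round, with 102.7 in E+CD133- cells and 41.3 to 57.6 on the other arrays. CXCR4 read 91.8 in E-CD133+ and 30.4 in E+CD133+ cells, against 59.1 in E-CD133- and 65.1 in E+CD133- cells. It was at least 1.71-fold higher in E-CD133+ than in E+CD133+ cells, and with 1 array under the floor the ratio itself could not be measured.

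The neutrophil chemokines CXCL1, CXCL2, CXCL3 and CXCL8 lie together on chromosome 4 and are well-known NF-kappaB targets. Their promoter windows are shown, with the same motifs in capitals, to set them beside their signals, which lay near or under the floor.
CXCL1 (GRCh38.p14, chr4:73869143-73869442, plus strand): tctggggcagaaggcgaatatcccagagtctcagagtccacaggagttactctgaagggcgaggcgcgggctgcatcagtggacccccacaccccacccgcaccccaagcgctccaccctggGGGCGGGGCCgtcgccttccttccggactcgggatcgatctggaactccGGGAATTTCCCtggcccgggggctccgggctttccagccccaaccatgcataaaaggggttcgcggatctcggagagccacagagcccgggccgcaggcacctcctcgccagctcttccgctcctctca
CXCL2 (GRCh38.p14, chr4:74099146-74099445, minus strand): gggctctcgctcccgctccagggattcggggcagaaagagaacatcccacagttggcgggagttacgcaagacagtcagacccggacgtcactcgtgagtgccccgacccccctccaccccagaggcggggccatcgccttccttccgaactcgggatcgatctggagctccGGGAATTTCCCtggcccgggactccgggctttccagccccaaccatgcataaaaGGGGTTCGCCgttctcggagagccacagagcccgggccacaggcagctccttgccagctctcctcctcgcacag
CXCL3 (GRCh38.p14, chr4:74038640-74038939, minus strand): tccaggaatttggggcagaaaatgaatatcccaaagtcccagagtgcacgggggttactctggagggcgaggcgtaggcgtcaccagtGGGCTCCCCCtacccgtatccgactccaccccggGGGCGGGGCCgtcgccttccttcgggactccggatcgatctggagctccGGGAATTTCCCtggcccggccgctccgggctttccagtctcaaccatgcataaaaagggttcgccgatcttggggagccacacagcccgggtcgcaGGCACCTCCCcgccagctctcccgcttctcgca
CXCL8 (GRCh38.p14, chr4:73740319-73740618, plus strand): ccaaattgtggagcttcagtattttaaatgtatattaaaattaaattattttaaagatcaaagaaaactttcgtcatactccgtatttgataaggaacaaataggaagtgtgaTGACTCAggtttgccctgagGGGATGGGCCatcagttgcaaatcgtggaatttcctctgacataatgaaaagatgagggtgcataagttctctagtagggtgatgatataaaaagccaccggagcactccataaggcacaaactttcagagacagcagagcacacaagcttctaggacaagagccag
CXCL1, CXCL2 and CXCL3 shared the run GGGAATTTCCC, which holds a pair of overlapping matches, at position -79 in CXCL1 and CXCL3 and -78 in CXCL2. Without gaps, 206 of 300 positions were identical between CXCL1 and CXCL3, which is 68.7%. The share was 51.7% between CXCL1 and CXCL2, 48.3% between CXCL2 and CXCL3, and 23.3% to 26% between CXCL8 and each of the others. CXCL8 held TGACTCA at position -137 and GGGATGGGCC, a match to the spacing only, at position -117. A binding site that departs from the searched letters stays in lower case, and a match does not show that a factor binds there. The window of CXCL5, also a chemokine on chromosome 4 but not printed here, held the letters GGGAATTTCCC too, at position -91. CXCL2, CXCL5 and CXCL8 lay below the floor on every array.

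The remaining members lay near a floor or changed little. IL10RB, a receptor chain shared by IL-10, IL-22 and the lambda interferons, read 1749 in E-CD133+ and 1154 in E+CD133+ cells, against 1207 in E-CD133- and 1112 in E+CD133- cells. IL1B, IL1RN, IL7R and CSF1 lay above the floor on 1 to 3 arrays and reached 71.3 to 97.8. None of their ratios or bounds reached 2-fold, but the bounds leave larger ratios possible: without a floor CSF1 was over 2-fold higher and IL1RN over 2-fold lower in E-cadherin-low cells in both pairs. In all, 9 of 24 members, or 37.5%, reached 2-fold in at least 1 pair, against 20.6% of all measured genes. Of the 15 others, 5 lay above the floor on all arrays, IL6ST, IL1R1, IL10RB, IL13RA1 and TNFRSF12A, with measured ratios between log2 -0.95 and 0.85. The other 10 lay under the floor on 1 or more arrays, so that part of their ratios are bounds or could not be measured.

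The wider pathways were read against the same background of all measured genes, 2.45% and 1.12% for CD133 and 0.476% and 0.54% for E-cadherin. Of 21 measured NF-kappaB pathway and target genes 0 were counted in either comparison, and likewise 0 of 22 measured genes of gp130 and JAK-STAT signalling. Their median ratios lay between log2 -0.09 and 0.16, and between -0.19 and 0.16, over the 4 pairs. A count of 0 does not mean that no gene passed 2-fold in 1 pair. For CD133 in E-cadherin-low cells the NF-kappaB list ran from log2 -0.78 (IKBKG) to 1.79 (NFKB2). The gp130 and JAK-STAT list ran from -0.41 (STAT5B) to 2.14 (SOCS2) there. In E-cadherin-high cells NFKB2 gave 0.11 and SOCS2 -0.03. These genes are named after their values were seen. Of 35 measured other cytokine, chemokine and receptor genes 1 was counted, CCR10, the receptor of CCL27 and CCL28. Counts of 0 or 1 in lists of this size are near that background. CCR10 read 361 in E-CD133+ and 498 in E+CD133+ cells, against 91.0 in E-CD133- and 233 in E+CD133- cells. The gene was higher with CD133 by log2 1.99 among E-cadherin-low and 1.09 among E-cadherin-high cells.

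Markers of other cell types were read beside these results. Of 6 leukocyte markers with a probe set, CD14, LYZ and MS4A1 stayed under the floor everywhere, and CD3E and ITGAM reached at most 62.5 and 86.3. PTPRC, the leukocyte protein CD45, read 1102 in E-CD133+ and 1246 in E+CD133+ cells, against 505 in E-CD133- and 346 in E+CD133- cells. It was higher in CD133-high cells in both pairs, as VEGFC was. The summed leukocyte signal was 1306 and 1396 in the CD133-high against 648 and 506 in the CD133-low subpopulations, and PTPRC made up most of each sum. The 5 other leukocyte markers summed to 204 in E-CD133+ and 149 in E+CD133+ cells, against 143 in E-CD133- and 161 in E+CD133- cells. The part of PTPRC in the results was not tested. Of 4 endothelial markers PECAM1 lay above the floor on all arrays, at 120 to 174, TEK on the CD133-low arrays alone, at up to 98.5, and CDH5 and VWF on none. The fibroblast markers PDGFRA, PDGFRB and THY1 lay below the floor on all arrays. The collagen genes COL1A1 and COL3A1 lay far above it, at 1614 to 2087 and at 15938 to 29221 in that order. Of 5 epithelial markers KRT7, KRT8, KRT18 and EPCAM were above the floor on all arrays and KRT19 on none. The 3′ over 5′ signal ratio was 1.53 to 1.78 for actin, highest in E-CD133+ cells.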

How the data were processed

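The values are the deposited intensities per probe set on a linear scale, produced with MAS5 per the submitters' processing notes. Its version is not stated in the labels. The mean after trimming 2% of probe sets at each end was 500.1 on every array, which shows a scaling within arrays before deposit. No detection calls came with the values, and precision is limited by the number of arrays.

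Gene symbols came from the platform annotation and were matched by gene ID to RefSeq (GRCh38.p14), where all 36 members with a probe set kept their symbol. Probe sets that carry several symbols were left out. The probe set brightest on average (log2) stood for its gene. Signals under the 50th percentile, taken without control probe sets, were set to that floor, a pair with both arrays at the floor had a log2 ratio of 0, and so did a bound that pointed to the array at its floor. That last rule was added after the values had been seen, and it changed no count of members past 2-fold. The members, the lists and the alternatives were chosen with earlier results of these data known. Every member was to be accounted for, and values on all arrays given for members at least 2-fold in any pair. Of the other lists, counted genes were to be named.

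The counting rule and the limma fit were run on simulated data, with changes well over 2-fold planted in genes well above the floor. That run does not show how either performs near the floor or near 2-fold. The alternatives were 2 other scalings, no floor, a floor at the 25th or 65th percentile, a threshold of 1.5-fold or 3-fold, 2 other choices of probe set and an additive limma fit with a Benjamini-Hochberg threshold of 0.05 over 14083 genes. The limma fit was tried on 5 other inputs as well, and these and the ratios without the added rule are alternatives chosen after seeing the data. The promoters printed were also chosen then. Promoter sequences are from RefSeq. Python 3.11.15, numpy 2.4.6, pandas 2.3.3, matplotlib 3.10.9, R 4.3.3 and limma 3.58.1 were used.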

Additional observations from a re-analysis of the deposited data

Results flagged for a closer look

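LIF had E-cadherin ratios in opposite directions, each over 1.5-fold. That limit was set after the ratios had been seen, and at 2-fold 0 members differed in this way. The ratio of E-cadherin-low over E-cadherin-high cells was log2 0.74 among CD133-high cells and -0.71 among CD133-low cells. The difference between these pairs was not tested, since each subpopulation has 1 array. Of all 14083 measured genes, 398, or 2.83%, had ratios that differed in this way in at least 1 of the comparisons.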

How the results depend on the processing

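With 1 array per subpopulation no replicate could be left out. For the same reason there were no replicates to pair across subpopulations, and the labels give no replicate numbers. The count of members lower in CD133-high cells was 0 under the 10 alternatives chosen at the outset. The count of members higher in CD133-high cells was 1, VEGFC, and it was 0 after quantile normalization, 2 with equal array medians (IL11 and VEGFC), 3 at 1.5-fold (IL11, IL1R1 and VEGFC), 0 at 3-fold and 0 by the additive limma fit, which called 27 genes higher and 28 lower. Alternatives chosen after seeing the data were 5 other inputs to the limma fit and the ratios with bounds that lack a direction kept. With all named genes floored, which adds genes at the floor on every array, the fit called 2 members higher (IL11 and VEGFC) and 1 lower (TNFRSF21) with CD133, among 923 and 442 genes. It called 0 members on floored signals minus each floor (203 and 98 genes), on signals not floored (0 and 0), on genes above the floor on all arrays (17 and 18) and with the highest floor on every array (0 and 0). Keeping the bounds left the counts at 1 member higher and 0 lower with CD133, and 0 and 0 for E-cadherin. In E-cadherin-low cells, 2 members were higher (CSF1 and CCL5) and 1 was lower (IL1RN) both without a floor and with the floor at the 25th percentile, from signals mostly under the floor. The main setting and the others of these 10 gave 0. Over all measured genes and these 10 alternatives the counts higher and lower with CD133 were 345 and 158, and ranged over 27 to 933 and 28 to 554. Those of the E-cadherin comparison were 67 and 76, and ranged over 0 to 335 and 0 to 258. Of 252 ratios recomputed for the 9 members that reached 2-fold, 242 kept their side of that threshold, 8 fell under it, 1 passed it and 1 reversed. Of the 242, 7 changed sign while under 2-fold, for LIFR, IL18, IL4R and VEGFC, at sizes of up to log2 0.54. The reversed one was the CD133 ratio of LIFR in E-cadherin-low cells, at -0.11 as the mean over probe sets, which includes a probe set below the floor on all arrays. Without shared probe sets 21 members were measured, and 13 with the floor at the 65th percentile. Signals near the floor limit what can be said of the chemokines, IL6, IL7R, IL1RN and CSF1.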
